A study of Saccharomyces cerevisiae with 16 samples.

Results

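Transcript levels of the genes for mitochondrial ribosomal proteins were followed across 6 groups of budding yeast (Saccharomyces cerevisiae). The genes are those of the table whose standard name is MRPL, MRPS or MRP and a number, a rule that uses no measured value. This gave 56 of the 7125 genes in the table (34 named MRPL, 9 named MRPS and 13 named MRP), and all 56 had values high enough to be tested. The series holds 16 RNA-seq libraries of 12 biological replicates, 2 in each group, and all cells grew in YPD, a rich medium with glucose. The serine group is wild type by genotype and is titled as treated with serine, and its reference is the control group, also wild type. The CK2 group carries the genotype ck2, which the labels do not spell out, and its reference is the group titled wt, called WT here. The sample called CK2 replicate 2 is numbered 2 in its title but 1 in its description, and the title was followed. The H3T11A group carries histone H3 with threonine 11 replaced by alanine, and its reference is YBL574. Per the study's methods, YBL574 lacks the chromosomal copies of the H3 and H4 genes and lives on copies carried by a plasmid, and H3T11A was made from it by exchange of that plasmid, so both members of the pair share the deletions. The labels do not say whether the 2 replicates of a group came from separate cultures or clones, so p-values measure the spread between these samples only. The values are RPKM, reads scaled to gene length and to the size of the library, so each level is a share of the RNA sequenced, and less transcript per cell cannot be told apart from more of other transcripts, nor less RNA per cell from fewer cells that hold it.

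The mitochondrial ribosome translates the few proteins that the mitochondrial genome still encodes, nearly all of them core subunits of the respiratory chain and of the ATP synthase. Its own proteins are, with the exception of Var1, encoded in the nucleus, made by cytosolic ribosomes and imported. Of the 56 genes, the annotation places 38 in the large and 17 in the small subunit. The systematic protein names tell 3 classes apart. A first letter u marks 24 proteins whose relatives occur in the ribosomes of all domains of life, b marks 13 shared with bacteria, and m marks 18 found in mitochondria. The remaining gene, MRP8 (YKL142W, chromosome XI, 178515 to 179174), kept its old name but is annotated only as Mrp8p, with no place in the ribosome, and is described apart from the other 55. The genes lie on 12 chromosomes and none lies on chromosome V. In yeast, many messages for mitochondrial proteins made in the nucleus are bound in the cytosol by Puf3, an RNA-binding protein of the Pumilio family that recognises a short element after the stop codon.

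The letters of the Puf3 element (TGTA, then any base, then ATA, on the sense strand) were searched in the 200 bases after each stop codon of the R64 reference genome of RefSeq. They occurred in 55 of the 56 genes (98.2%), against 844 of all 6001 nuclear protein-coding genes (14.1%). MRP8 was the 1 gene without a match. On the opposite strand of the same windows, the letters occurred in 11 of the 56 genes (19.6%) and in 13.2% of all genes. In the 55 genes the first match began between base 8 and base 139 after the stop codon, with a median of base 52, and 11 genes held more than 1 match. The second base before the match was C in 44 of the 66 matches (66.7%), against 25% of the 848 matches in other genes. The first match is shown for 12 genes that the comparisons below turn on, 5′ to 3′ in the direction of the gene, with the element in capitals. A match is a stretch of letters and not a measured binding site.
MRPS16 (chrXVI:528881-528910, minus strand): tatgtatatgtTGTATATAtgttttacttg
MRPL37 (chrII:741638-741667, plus strand): tttggtatcctTGTAAATAaatatgtgtgt
MRP35 (chrXIV:397921-397950, minus strand): ttcggtcttcaTGTATATAaataagtatga
MRPL13 (chrXI:450358-450387, minus strand): ttttaatatccTGTACATAtatatactctt
MRPL32 (chrIII:119206-119235, plus strand): aaacttaagccTGTATATAgaaacttaatt
MRPL25 (chrVII:637008-637037, minus strand): atgtctaatcaTGTAAATAattttgtgata
MRPS12 (chrXIV:694269-694298, minus strand): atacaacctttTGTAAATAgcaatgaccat
MRPL44 (chrXIII:720854-720883, minus strand): acaagcaagccTGTAAATAatatatatgca
MRP49 (chrXI:133678-133707, minus strand): aagtttgttcaTGTATATAtcaaaaaacat
MRPL51 (chrXVI:730250-730279, plus strand): ataattatactTGTATATAtaatttggggc
MRPL20 (chrXI:599049-599078, minus strand): aataacaatcgTGTAAATActactctataa
MRP1 (chrIV:1170183-1170212, plus strand): ttggtagtctcTGTAAATAtataaagtcaa

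The share with a match differed between the gene lists set beside the 56 genes. The element occurred in 23 of 24 nuclear genes for other mitochondrial ribosomal proteins and in 21 of 23 genes for mitochondrial translation factors and tRNA synthetases. It occurred in 4 of 34 nuclear genes of the respiratory chain and the ATP synthase (11.8%) and in 5 of 132 genes for cytosolic ribosomal proteins (3.79%). Of 2 promoter words, searched on both strands from 250 bases before to 50 bases after the start codon, AATTTT occurred in 25 of the 56 genes (44.6%, against 51.7% of all genes). CCAAT, the core of the site of the Hap activators of respiration, occurred in 22 (39.3%, against 43.3% of all genes).

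Some facts of the series bear on all that follows. Read totals fitted to the table ran from 8774262 to 18078761 per library, and the 56 genes drew between 86 and 3396 recovered reads in a biological replicate (median 550), so counting error was 10.8% at the lowest and 4.26% at the median. CKA1, a catalytic subunit gene of casein kinase 2, was at 0.064 and 0.068 RPKM in CK2, against 66.9 and 57.5 in WT. The 4 mating type a markers summed to 19.3 to 22.1 RPKM in CK2 and 10.3 to 13.9 in the serine and control groups, against 1533 to 2219 in WT, YBL574 and H3T11A. The sum of the 3 alpha markers ran the other way, at 415 to 440 RPKM in CK2 and 1262 to 1539 in serine and control. It was 6.85 to 10.8 RPKM in WT, YBL574 and H3T11A. MF(ALPHA)1 made up most of the high sums, and MF(ALPHA)2 did not set serine and control apart from YBL574 and H3T11A. CK2 and WT, and likewise control and WT, therefore differ in the transcripts of mating type as well as in what the labels name. Chromosome V stood out in CK2, where the median log2 fold change against WT was 0.91 over its 289 genes and -0.01 elsewhere in the nucleus, but it holds none of the 56 genes. YBL574 and H3T11A had 2 technical libraries of each RNA extraction, which were averaged. Within an extraction the first library exceeded the second by a median of 0.05 to 0.16 on the log2 scale over the 56 genes (SD 0.26 to 0.32). These differences were alike in the 4 extractions, with a Pearson's r of 0.69 to 0.90 over the 56 genes (6 pairs of extractions, which share the gene lengths and the base composition of the genes). The other 4 groups had 1 library a replicate.

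The 55 ribosomal genes were expressed at moderate and rather uniform levels. In the 12 replicates their median lay between 31.95 RPKM (H3T11A replicate 3) and 80.2 RPKM (CK2 replicate 2), above the median of all tested genes in each (24.5 to 38.3 RPKM). By the median over genes of the group mean, CK2 stood at 74.4 RPKM, WT at 73.3, serine at 52.6, YBL574 at 51.0, control at 47.3 and H3T11A at 38.3. The order of CK2 and WT was within the spread, since the CK2 replicates had medians of 80.2 and 70.2, against 73.3 and 73.6 in WT. That of H3T11A and control was not settled either, since H3T11A had medians of 46.0 and 31.95 and control 45.6 and 46.1. Of the 55 genes, 36 had their highest group mean in CK2, 17 in WT and 2 in serine. The lowest group mean fell in H3T11A for 46 genes, in control for 8 and in YBL574 for 1. These orders are in RPKM, and the median of all tested genes differed between the groups too. It was 37.99 and 38.3 RPKM in CK2, 38.17 and 37.91 in WT, 33.64 and 33.37 in serine and 33.51 and 33.49 in control. In YBL574 it was 26.56 and 26.32 RPKM, and in H3T11A 25.5 and 24.51. Its part in the order of the groups was not tested. Among the ribosomal genes, MRPS12 and MRPL39 had the highest mean over the 12 replicates (115 and 108 RPKM), and MRPL4, MRP20 and MRPL11 the lowest (27.2, 34.4 and 37.9 RPKM). MRPS12 encodes uS12m, the relative of bacterial S12 at the decoding centre, and MRPL39 encodes bL33m of the large subunit. MRPL4 encodes uL29m and MRP20 encodes uL23m, whose bacterial relatives line the exit of the peptide tunnel, and MRPL11 encodes uL10m of the stalk base.

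**Figure D1:**
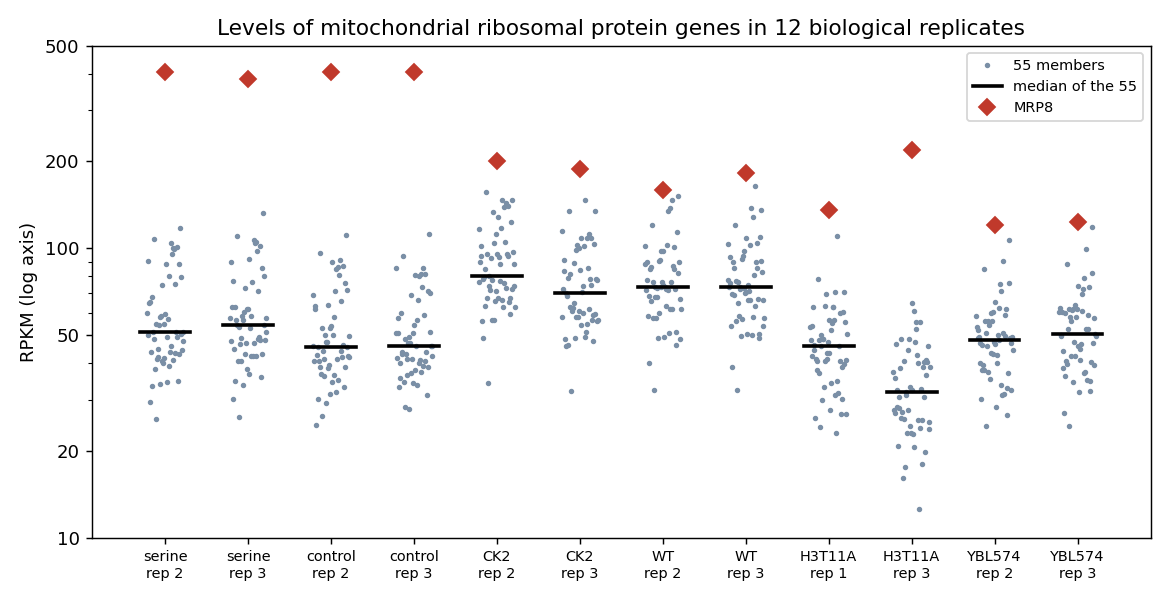
Levels of the 56 genes in the 12 biological replicates. Each dot is 1 of 55 ribosomal genes, bars are their medians, diamonds are MRP8, and the vertical axis is RPKM on a log scale. The medians of the 55 genes are highest in CK2 replicate 2 (80.2 RPKM) and lowest in H3T11A replicate 3 (31.95 RPKM), and MRP8 lies above the 55 ribosomal genes in each of the 12 replicates.

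Between CK2 and WT, the comparison of the ck2 genotype with its wild type, 1 of the 56 genes passed the threshold (limma on log2(RPKM + 1), adjusted p under 0.05), whereas 31.0% of all genes tested did (16.4% higher and 14.6% lower). At an unadjusted p under 0.05 there were 3, and the same test on recovered reads (voom) also called 1. The median log2 fold change of the 56 genes was 0.10 (0.01 for all genes tested), with 38 positive and 18 negative values from -0.39 to 0.37. Both CK2 replicates lay above both WT replicates in 24 genes (38.6% of all genes) and below both in 9 (37.6%). The median was 0.19 without CK2 replicate 3 and -0.01 without CK2 replicate 2. The gene called was MRPS16 (YPL013C, chromosome XVI, 528985 to 529350), which encodes bS16m, a small subunit protein shared with bacteria. MRPS16 was at 72.5 and 59.3 RPKM in CK2, against 82.4 and 90.3 in WT. Both CK2 replicates lay below both WT replicates. Its log2 fold change was -0.39 (SE 0.10, limma adjusted p = 0.0199, over 13 alternatives 0.0124 to 0.14). The call was lost without CK2 replicate 3 (adjusted p = 0.14), WT replicate 2 (0.0527) or WT replicate 3 (0.123), and with the CK2 and WT groups fitted alone (0.0566), where 4 other genes were called higher, or with upper-quartile scaling (0.0773), where 6 were. It was also lost with a replicate block (limma adjusted p = 0.0804).

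The CK2 replicates did not stand alike to WT, so each is given apart. In CK2 replicate 2, 42 of the 56 genes lay above both WT replicates (44.9% of all genes did) and 10 lay below both (43.0%). In CK2 replicate 3, 24 lay above both WT replicates (44.9% of all genes) and 29 lay below both (43.9%). Against the WT mean, the median over the 56 genes was 0.19 in replicate 2 and -0.01 in replicate 3 on the log2 scale, and over all genes it was 0.01 in each. Replicate 2 was higher than replicate 3 in 54 of the 56 genes (49.3% of all genes), by a median of 0.22 and at most 0.46. This difference had a median of 0.24 over the large subunit genes (36 of 38 positive) and of 0.21 over the small subunit genes (17 of 17 positive). Over the classes u, b and m its median was 0.22, 0.31 and 0.22. There is 1 sample on each side, so this difference has no test. As the spread to read it by, the same median was -0.04 in serine, 0.03 in control, -0.01 in WT, -0.08 in YBL574 and 0.50 in H3T11A.

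MRPL37, which encodes mL54, a mitochondrial protein of the large subunit, differed most between the CK2 replicates. Replicate 2 had 75.6 RPKM and replicate 3 had 54.9, against 61.5 and 58.1 in WT, so that the 2 replicates lay on either side of WT. MRPL25, which encodes mL59, did the same, with 93.2 and 70.4 RPKM in CK2 against 73.3 and 74.8 in WT. MRPL13, which encodes mL50, was at 133.9 and 98.6 RPKM in CK2, against 90.5 and 91.7 in WT, and both CK2 replicates were higher than both WT replicates. MRP35 and MRPL32 encode bL35m and bL32m, both shared with bacterial large subunits. MRP35 was at 63.1 and 46.2 RPKM in CK2, against 65.6 and 68.9 in WT. MRPL32 was at 66.3 and 49.55 RPKM in CK2, against 71.7 and 66.4 in WT. In both of these genes the CK2 replicates were below the WT replicates, replicate 3 far more than replicate 2. None of the 5 passed the threshold (limma log2 fold changes of 0.11, 0.13, 0.33, -0.31 and -0.26, lowest adjusted p = 0.172).

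**Figure D2:**
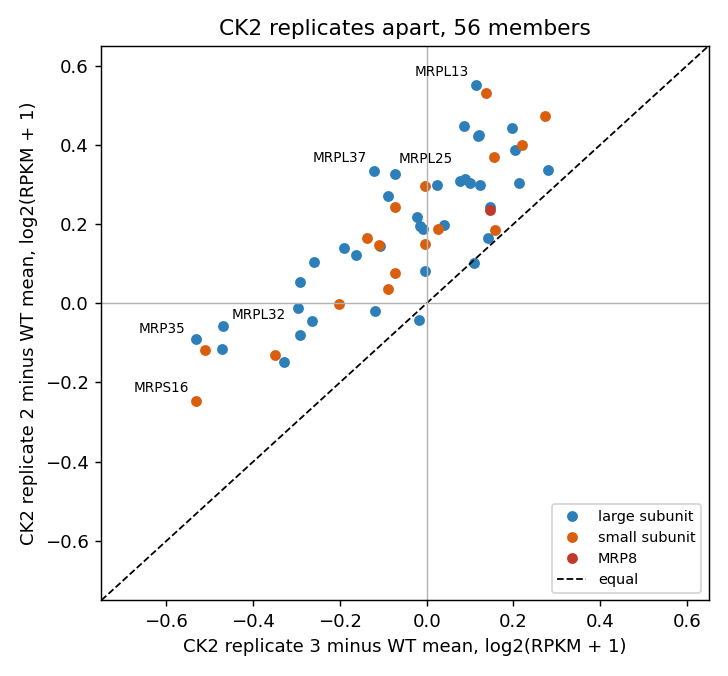
The 2 CK2 replicates set apart. Each point is 1 of the 56 genes, with its difference from the WT mean in CK2 replicate 3 on the horizontal axis and in replicate 2 on the vertical axis, both on log2(RPKM + 1). All but 2 of the points lie above the dashed line of equality, and the cloud is centred near -0.01 on the horizontal and 0.19 on the vertical axis.

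The transcripts that the mitochondrial ribosome translates also set the CK2 replicates apart. COX1, for a core subunit of cytochrome c oxidase, had 0.711 RPKM in CK2 replicate 2 but 941 in CK2 replicate 3, against 1666 and 1381 in WT. COB, ATP6 and OLI1 were likewise under 1 RPKM in CK2 replicate 2 alone. VAR1, for the ribosomal protein encoded in the mitochondrion, was listed at 0 there, but it was low in all 4 samples. It had 1.27 RPKM in CK2 replicate 3 and 1.03 and 0.74 in WT. COX2 and COX3 were present in both (772 and 2281 RPKM in replicate 2, 932 and 1326 in replicate 3). In WT, COX2 was at 687.3 and 644.4 RPKM and COX3 at 895.5 and 822.5. COX3 was the 1 gene called of the 8 protein genes of the mitochondrial genome, where 31.0% of all genes were called. It was higher in CK2 (log2 fold change 1.02, limma adjusted p = 0.0126). The nuclear genes of the respiratory chain and the ATP synthase went the other way from the ribosomal genes, with replicate 2 lower in most (median -0.11, higher in 6 of 34). A shift of this size was not particular to CK2. Between the replicates of the other groups the median of this list was -0.12 in serine, -0.09 in control, 0.06 in WT, 0.27 in H3T11A and -0.45 in YBL574. Genes for cytosolic ribosomal proteins hardly differed (median -0.02, higher in 56 of 132). The part of the mitochondrial transcripts in the difference between the replicates was not tested.

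**Figure D3:**
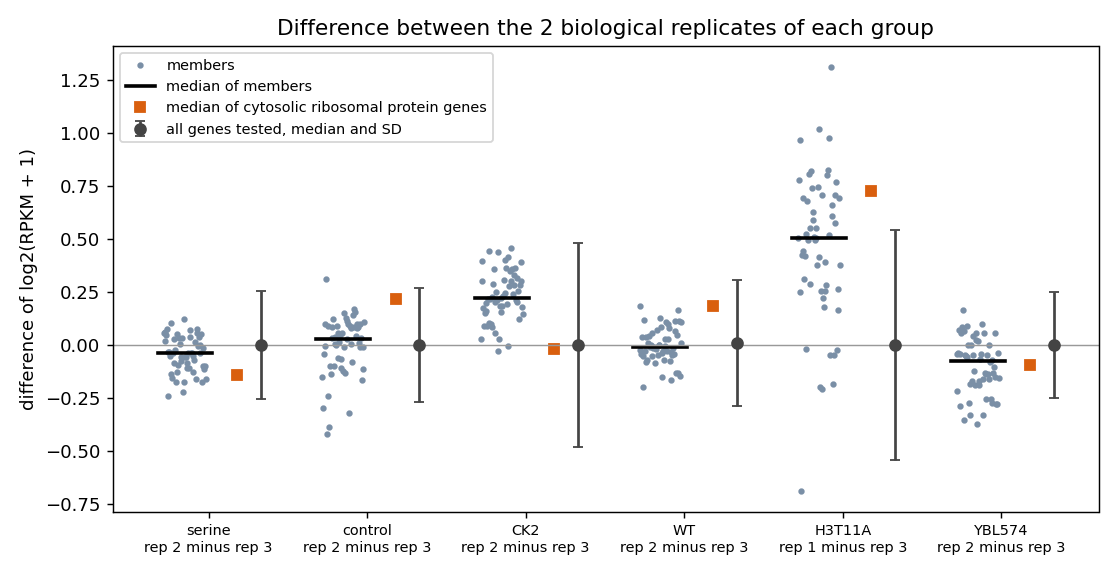
Difference between the 2 biological replicates in each of the 6 groups, on log2(RPKM + 1). Dots are the 56 genes, black bars their medians, squares the medians of 132 cytosolic ribosomal protein genes, and circles with error bars the median and SD of all 6727 genes tested. The 56 genes are shifted as a body in CK2 (median 0.22) and in H3T11A (0.50), and their medians lie within 0.08 of 0 in the other 4 groups.

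Between H3T11A and YBL574, the comparison that asks for the effect of threonine 11 of histone H3, 17 of the 56 genes fell and none rose, whereas 40.7% of all genes tested were called (21.6% fell and 19.1% rose). The median log2 fold change of the 56 genes was -0.32, against -0.06 over all genes tested, and 51 of 56 values were negative (10 and 12 were positive with median-of-ratios or upper-quartile scaling). In the large subunit 11 of 38 genes fell and in the small subunit 6 of 17, with medians of -0.32 and -0.40. By class, 10 of 24 genes of class u fell, 4 of 13 of class b and 3 of 18 of class m. In 35 of the 56 genes both H3T11A replicates lay below both YBL574 replicates, against 35.7% of all genes, and in 3 both lay above (29.7%). The count rests on a spread shared by all 6 groups. With H3T11A and YBL574 fitted alone, none of the 56 genes passed in limma (9 at an unadjusted p under 0.05), the 8 genes named next included, and 3.33% of all genes did.

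MRPS12 (uS12m) fell most. It was at 70.6 and 41.1 RPKM in H3T11A, against 106.9 and 118.8 in YBL574, a log2 fold change of -1.05 (SE 0.21, limma adjusted p = 0.00474, over 13 alternatives 1.99e-05 to 0.107). MRPL44, for mL53, was at 46.0 and 17.97 RPKM in H3T11A, against 58.7 and 58.6 in YBL574 (-0.998, SE 0.33, adjusted p = 0.0378). MRPL37 was at 23.0 and 12.5 RPKM in H3T11A, against 31.2 and 37.4 in YBL574 (-0.96, SE 0.24, adjusted p = 0.0134). In these 3 genes, as in the 5 that follow, H3T11A replicate 3 was the lowest of the 4 samples and the groups did not overlap. MRPL19, for uL11m of the stalk base, was at 41.4 and 24.3 RPKM in H3T11A, against 60.3 and 57.8 in YBL574, and it overlaps the gene YNL184C. MRPL38, for uL14m at the face of the large subunit that meets the small one, was at 34.8 and 24.0 RPKM in H3T11A, against 50.8 and 52.5 in YBL574. MRPL8, for bL17m, was at 29.9 and 17.5 RPKM in H3T11A, against 37.4 and 42.6 in YBL574. The remaining members named by size belong to the small subunit. MRPS9, for uS9m, was at 60.3 and 36.5 RPKM in H3T11A, against 76.1 and 82.0 in YBL574. MRPS8, for uS8m, was at 30.0 and 19.9 RPKM in H3T11A, against 37.03 and 40.6 in YBL574. The log2 fold changes of these 5 genes ran from -0.87 to -0.64, with limma adjusted p between 0.00494 and 0.0166.

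**Figure D4:**
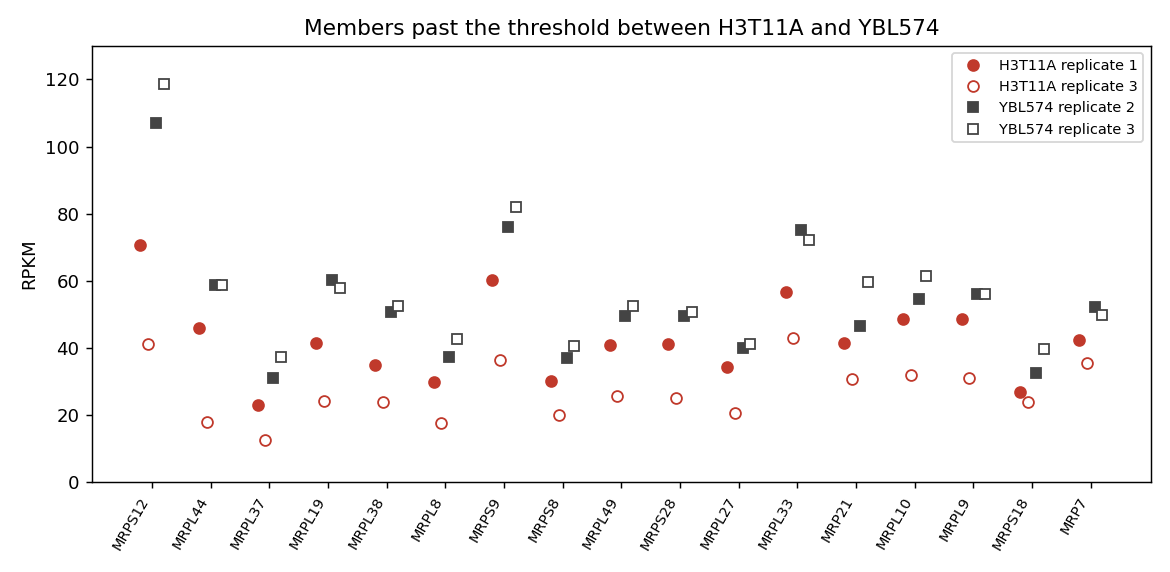
The 17 genes past the threshold between H3T11A and YBL574, in order of fold change. Circles are H3T11A replicates 1 (filled) and 3 (open), squares are YBL574 replicates 2 (filled) and 3 (open), and the vertical axis is RPKM. H3T11A replicate 3 is the lowest of the 4 samples in each of the 17 genes.

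The distance between replicates was widest in H3T11A. Replicate 1 was higher than replicate 3 in 48 of the 56 genes, by a median of 0.50, whereas the median over all genes was 0.00. Against the YBL574 mean, the median was -0.15 in replicate 1 and -0.57 in replicate 3 on the log2 scale. Replicate 1 lay above both YBL574 replicates in 14 of the 56 genes (41.1% of all genes) and below both in 35 (46.6%). Replicate 3 lay above both in 3 (42.1% of all genes) and below both in 49 (49.9%). Without replicate 1 the test called 41 genes lower and 2 higher, and without replicate 3 it called 11 lower. Without YBL574 replicate 2 or 3 it called 9 or 4, all lower. Genes for cytosolic ribosomal proteins showed the same difference between the H3T11A replicates, with replicate 1 higher in 131 of 132 genes by a median of 0.73, and their part in the result was not tested. On recovered reads scaled to their own sum, voom called 42 of the 56 genes lower. There the median of all genes was -0.40, and the median of the 56 genes relative to it (-0.27) was close to that in RPKM (-0.26). With the fitted read totals as library sizes, a choice made after seeing the data, voom called 21 lower and 1 higher.

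Between serine and control, none of the 56 genes passed the threshold (limma, 3 at an unadjusted p under 0.05, none by voom), and 1.34% of all genes tested did (0.714% higher and 0.624% lower). Most values were on the positive side, with 53 of 56 log2 fold changes above 0 (51.1% of all genes) and a median of 0.17, against 0.00 over all genes tested. Both serine replicates lay above both control replicates in 43 genes, against 27.8% of all genes, and below both in 1 (27.2%). The largest value was that of MRPL38, chosen after its values were seen, at 99.9 and 105.0 RPKM in serine, against 81.1 and 73.4 in control (0.41, SE 0.16, limma adjusted p = 0.311). MRP49, for mL61 and likewise chosen afterwards, had the lowest adjusted p (0.135), with 48.5 and 54.2 RPKM in serine, against 39.0 and 43.0 in control. For scale, the median difference between the 2 replicates over the 56 genes was -0.038 in serine and 0.03 in control. Between the 2 CK2 replicates it was 0.22. Each serine replicate had a positive median against the control mean (0.16 and 0.21). Genes for cytosolic ribosomal proteins lay on the other side in the same samples, with a median of -0.72, 132 of 132 values negative and 13 past the threshold.

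The remaining comparisons set one strain background against another. YBL574 and WT differ in the histone gene deletions and the plasmid, and may differ in more. The study's strain list gives the YBL strain further marker alleles, and the part of each difference was not tested. The values of the table as a whole were lower in YBL574, with a median of -0.37 over all genes tested. Of the 56 genes 36 fell and none rose (54.9% of all genes were called, 48.4% lower and 6.42% higher), and the median was -0.57, or -0.205 relative to all genes. In all 56 both YBL574 replicates lay below both WT replicates, as did 66.7% of all genes (83.6% did not overlap in either direction). All 56 values were negative, but 9 and 12 were positive with median-of-ratios or upper-quartile scaling, where 5 genes fell in each. Without YBL574 replicate 2 the count was 19. The share of higher genes among all genes called moved likewise, and was 49.9% and 57.4% under these scalings against 11.7% in RPKM. MRPL51, for mL43, was at 26.6 and 32.3 RPKM in YBL574, against 72.05 and 66.6 in WT (-1.22, SE 0.12, limma adjusted p = 0.000119). The gene overlaps YPR099C, and the use of strand in the counting is not given in the sources used here. Its technical libraries disagreed, with 37.3 and 15.8 RPKM in YBL574 replicate 2 and 44.2 and 20.3 in replicate 3, and with the first library alone the fold change was -0.76 (adjusted p = 0.000907). MRP49 was at 39.4 and 40.7 RPKM in YBL574, against 86.1 and 85.7 in WT, and its fold change of -1.08 (SE 0.09, limma adjusted p = 6.31e-05) was -1.04 with the first library alone. MRPL40 (uL24m), MRPL33 (uL30m), MRP35, MRPS16, MRPL36 (bL31m) and MRPL37 followed, with log2 fold changes from -0.90 to -0.79. MRPL33 was at 75.1 and 72.3 RPKM in YBL574, against 135.0 and 137.7 in WT. The call of MRPL37 was lost with the first library alone (limma adjusted p = 0.206) and under 6 other alternatives. That of MRPL36 was lost under 4 of 14 alternatives and that of MRP35 under 2. The calls of MRPL40, MRPL33 and MRPS16 held under all 14.

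Control and WT are both wild type by label and show how far 2 wild type groups of the series lay apart. Of the 56 genes 41 fell and 1, MRP8, rose (59.0% of all genes were called, 36.9% lower and 22.1% higher), and without MRP8 the count of the others was 41 of 55. The median of the 56 genes was -0.61, or -0.44 relative to all genes, and 55 values were negative (3 and 2 were positive with median-of-ratios or upper-quartile scaling). Both control replicates lay below both WT replicates in 53 genes (50.4% of all genes) and above both in 1 (34.0%), where 84.4% of all genes did not overlap. Without 1 of the 4 replicates the count was 25 to 27, MRP8 included, and the share of higher genes among all genes called was 48.9% with median-of-ratios scaling, against 37.5% in RPKM. MRPL20, for mL58, was at 31.5 and 34.3 RPKM in control, against 76.7 and 70.1 in WT (-1.13, SE 0.28, limma adjusted p = 0.00652). MRP1, for mS43 of the small subunit, was at 46.0 and 51.2 RPKM in control, against 101.5 and 103.3 in WT (-1.06, SE 0.14, adjusted p = 0.00026). MRP49 was at 39.0 and 43.0 RPKM in control, against 86.1 and 85.7 in WT (-1.05, SE 0.09, adjusted p = 1.81e-05). In each of these 3 genes both control replicates lay far below both WT replicates. MRPL49 (bL21m), MRPL28 (mL40), MRP13 (mS44), MRPL13 and MRPL32 followed, with log2 fold changes from -1.02 to -0.93. None of these 8 calls was lost under the 13 alternatives, and their directions held in each. Since YBL574 and control were set against the same WT replicates, the 2 sets of values are not independent.

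MRP8 did not move with the ribosomal genes. It was at 407 and 386 RPKM in serine and at 406 and 407 in control, against 159 and 182 in WT, and control exceeded WT by a log2 fold change of 1.25 (SE 0.19, limma adjusted p = 0.000491, at most 0.00651 over 13 alternatives). It was at 200.3 and 188 RPKM in CK2. In H3T11A it was at 136 and 219 RPKM, against 120.1 and 124 in YBL574 (0.50, SE 0.19, adjusted p = 0.0641), and here replicate 3 was the higher of the 2, the reverse of 48 of the other 55 genes.

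**Figure D5:**
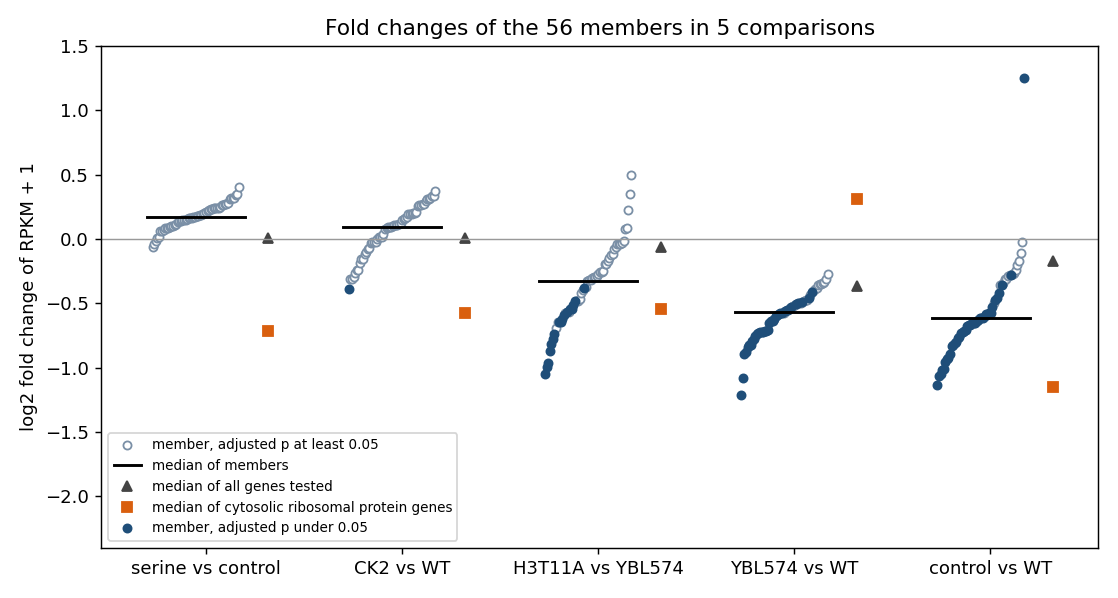
Log2 fold changes of RPKM + 1 for the 56 genes in 5 comparisons, each sorted from low to high. Filled dots passed the threshold, open dots did not, bars are medians of the 56 genes, and triangles and squares are the medians of all genes tested and of the 132 cytosolic ribosomal protein genes. Medians of the 56 genes are 0.17, 0.10, -0.32, -0.57 and -0.61 from left to right, and the single filled dot above 0 is MRP8 at 1.25.

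Other genes of mitochondrial translation, from lists drawn up for this purpose, were set beside them. Among the 25 further mitochondrial ribosomal protein genes, VAR1 included, the medians were 0.22, 0.09, -0.38, -0.57 and -0.63 in the order of the comparisons above, against 0.17, 0.10, -0.32, -0.57 and -0.61 for the 56 genes. In H3T11A, where 21.6% of all genes fell and 19.1% rose, 10 of the 25 fell and none rose, led by RSM26, for a small subunit protein, at 27.7 and 12.7 RPKM in H3T11A, against 54.4 and 61.9 in YBL574. In CK2, where 16.4% of all genes rose and 14.6% fell, 3 of the 25 rose and none fell. The largest rise was that of RML2, the relative of bacterial L2, at 145.7 and 139.7 RPKM in CK2, against 73.5 and 71.0 in WT, and 2 of these 3 genes lie on chromosome V. Of 23 genes for mitochondrial translation factors and tRNA synthetases, 6 rose in CK2, 1 of them on chromosome V, and none fell (median 0.21). In H3T11A 2 of the 23 rose and 6 fell (median -0.11), led by MRF1, the release factor, at 13.1 and 9.93 RPKM in H3T11A, against 22.9 and 25.4 in YBL574. Of 5 assembly and rRNA modification factors none passed in H3T11A or serine. MRM1, an rRNA methyltransferase, fell in CK2, at 18.6 and 18.8 RPKM, against 36.3 and 34.6 in WT. In YBL574 against WT 4 of the 5 fell and none rose (median -0.66), where 48.4% of all genes fell and 6.42% rose. In control against WT 3 fell and 1 rose (median -0.72), where 36.9% of all genes fell and 22.1% rose.

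Nuclear genes of the respiratory chain and genes of the cytosolic ribosome were compared in the same way. Of the 34 nuclear genes of the respiratory chain and the ATP synthase, 26 rose in control against WT and 10 in YBL574 against WT, with none falling in either (medians 0.65 and 0.36), where 22.1% and 6.42% of all genes rose. In the same comparisons 41 and 36 of the 56 ribosomal genes fell, where 36.9% and 48.4% of all genes did. In CK2 1 of the 34 rose and 6 fell (median -0.37), where 16.4% of all genes rose and 14.6% fell. In H3T11A 1 rose and 6 fell (median -0.17), where 19.1% of all genes rose and 21.6% fell. Of the 132 cytosolic ribosomal protein genes, 132 fell in control against WT (median -1.15) and 20 rose in YBL574 against WT (median 0.31, none fell). In CK2 44 of the 132 fell and none rose (median -0.58), and in H3T11A 2 rose and 54 fell (median -0.55). The medians of the 132 cytosolic and the 56 mitochondrial genes were thus both negative in H3T11A and in control, and had opposite signs in serine and YBL574. In CK2 replicate 2 they were -0.59 and 0.19 against the WT mean. In CK2 replicate 3 they were -0.55 and -0.01, and the -0.01 of the 56 genes lay close to the median of all genes (0.01).

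The other genes with the Puf3 letters were looked at last. There were 788 of them with values, a list made after the data were seen, 44 of which belong to the lists of mitochondrial ribosomal proteins and translation factors above, and they had medians of 0.06 in serine, 0.05 in CK2, -0.15 in H3T11A, -0.46 in YBL574 and -0.30 in control. In each comparison this median lay between that of all genes and that of the 56 genes. Between the replicates their median difference was 0.05 in CK2 and 0.11 in H3T11A. PUF3 itself was at 89.2 and 76.2 RPKM in CK2, against 81.6 and 81.5 in WT, and at 49.5 and 27.1 RPKM in H3T11A, against 55.2 and 58.3 in YBL574. The part of PUF3 in the differences between replicates was not tested.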

How the data were processed

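The deposited table holds RPKM per gene and library, which the authors made from their reads. The submitters' processing notes name CASAVA 1.8.2, TopHat2 2.0.13, edgeR and the sacCer3 build, with no roles. How reads were counted, and whether by strand, is not given in the sources used here. RPKM is a share of the library, so a change in abundant genes shifts all others. Technical libraries of 1 extraction were averaged. Tests used limma 3.58.1 in R 4.3.3 (lmFit, and eBayes with trend) on log2(RPKM + 1) over the 12 biological replicates of all 6 groups, which leave 6 residual degrees of freedom. Genes at 1 RPKM or more in at least 2 replicates were tested (6727 of 7125). P-values are two-sided and Benjamini-Hochberg adjusted over all genes tested, with a threshold of 0.05. A fold change on log2(RPKM + 1) understates that of low genes. Read totals were fitted from the steps of low values. Between 96.7% and 98.7% of these came out whole within 0.1 reads, and 3 reads in 1 kb correspond to 0.166 to 0.342 RPKM. Counting errors cover counting alone. On simulated data for CK2 against WT (5951 genes), 41% of changes of 0.5 and 97% of changes of 1 on the log2 scale were recovered, with 4 false calls. The changes were set in 100 well-covered genes at each size, with the same spread between replicates in all genes and groups. In the data 31.0% of all genes were called in CK2 and the spread differed between groups, so these shares need not hold for the tests here. IDs were matched to the R64 annotation (6079 matched), and sequences are from RefSeq R64. Named genes are, per comparison, up to 8 that rose and 8 that fell most among those past the threshold whose groups do not overlap, the 3 with the highest and the 3 with the lowest mean level, and the 5 that differed most between the CK2 replicates. The members and lists were chosen with earlier results of these data known. Alternatives were other pseudocounts, scalings and filters, 2 groups alone, 1 technical library, voom on recovered reads, a replicate block and leaving out each replicate.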

Additional observations from a re-analysis of the deposited data

How the results depend on the processing

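In serine against control the count of the 56 genes called was 0 under every alternative run. In CK2 against WT the count was 1, and it was 4 with both groups fitted alone and 6 with upper-quartile scaling, all higher in CK2. It was 0 to 1 without 1 replicate. With upper-quartile scaling the median against the WT mean was 0.271 in CK2 replicate 2 and 0.094 in replicate 3, and 64.7% of all genes called were higher, against 52.8%. In H3T11A against YBL574 the count was 17, and it was 0 with both groups alone, 42 with voom and 4 to 43 without 1 replicate. In YBL574 against WT the count was 36, and it was 5 with either median-of-ratios or upper-quartile scaling and 19 to 30 without 1 replicate. In control against WT the count was 42, and 25 to 27 without 1 replicate. The cause of these changes was not tested. No fold change of a named gene changed direction while called. With voom, and with the alternative with fitted totals and that without MRP8, which were chosen after seeing the data, no other count moved by over 1.5 times. Same-numbered replicates were not treated as pairs in the main test, since no batch is labelled. Correlations of their deviations over all genes were -0.0876 (serine), -0.0519 (CK2), -0.0268 (YBL574) and 0.122 (control). With 2 pairs a comparison these values cannot tell whether the replicates were paired. The replicate block was fitted to the 2 groups of a comparison alone, with fewer residual degrees of freedom than the main test. With a replicate block the count was 0 in serine, 2 in CK2 (both higher, MRPS16 lost, and resting on a replicate number that the labels of CK2 replicate 2 give in 2 ways), 54 in YBL574 and 50 in control. For H3T11A against YBL574 alone, no paired analysis was possible because the groups share a single replicate number. With 2 replicates a group, small differences may be missed. The 41% of changes of 0.5 recovered holds for the simulated setting, which differs from these data.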
